A study of Mus musculus with 3 samples.

Results

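The KEAP1-NRF2 antioxidant system was followed through 10 genes (Nfe2l2, Keap1, Nqo1, Gclm, Gclc, Txnrd1, Srxn1, Prdx1, Sod2 and Gsr), chosen by name from the 32886 genes of the raw count table and described in every cell cluster and compartment. The cells came from kidneys of untreated wild-type male C57BL/6J mice aged 10 weeks, which were perfused, cut by hand into 3 compartments (the inner medulla or IM, the outer medulla or OM, and the cortex), digested with collagenase and sorted for live CD45+ cells, CD45 being the surface protein shared by leukocytes. Each compartment was sequenced at 3 facilities, Aachen, Bonn and Hamburg, called datasets here. The cells of 1 compartment in 1 dataset were taken as 1 library, which gave 9 libraries with the dataset as replicate. The number of mice behind a library is not given in the sources used here, so the spread between datasets may hold technical as well as animal variation.

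The 20266 cells fell into 23 clusters named by the authors. Libraries held 621 to 3677 cells and 2122809 to 15267126 unique molecular identifiers (UMIs, tags that count single RNA molecules), and the median cell held 887 UMIs in Aachen, 3290.5 in Bonn and 2943.92 in Hamburg. Hamburg values were whole numbers in only 0.118% of the nonzero entries against 100% in Aachen and Bonn (no tolerance), and 85.1% of them lay at most 0.1 below a whole number. How the Hamburg values were altered is not given in the sources used here, which limits comparison of levels between datasets. Of 20042 barcode sequences, 216 occurred in 2 libraries and 3 in 3 libraries. Barcodes carried 2 suffixes per Aachen compartment and 1 suffix in the whole Hamburg dataset, whose libraries shared 0 sequences. Whether a library as used here was a separate droplet run is not given in the sources used here. Levels are given as UMIs of a gene per 1000000 UMIs of the same cells (CPM), with mean ± SD over the 3 datasets unless stated. The summed resident macrophage list (C1qa, C1qb, C1qc, Cd81, Adgre1, Csf1r, Fcgr1 and Cd68) had a median of 22492 CPM in resident macrophages against 111 in T cells. In Aachen T cells it was higher, at 866 in cortex, 1904 in OM and 2285 in IM, against 41.6 to 129 in Bonn and Hamburg. The T cell list (Cd3d, Cd3e, Cd3g, Trac and Trbc2) had 3302 in T cells against 37.0 in resident macrophages. The monocyte list set monocytes apart less clearly, with a median of 4369 CPM in monocytes and 872 in T cells. It was 5485 in the 1 library of plasmacytoid dendritic cells. Neutrophils also held the macrophage list, at 2992 to 8536 CPM over their 4 libraries of at least 20 cells.

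NRF2, encoded by Nfe2l2, is a transcription factor that is held low by KEAP1, which hands it to a ubiquitin ligase for degradation. Oxidants and electrophiles modify KEAP1, NRF2 then accumulates, enters the nucleus with a small MAF partner and binds antioxidant response elements of genes for glutathione synthesis, the thioredoxin system and quinone reduction. Because this control acts largely on the protein, the mRNA level of Nfe2l2 is a measure of the transcript and not of NRF2 activity.

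The genes lie apart in the mouse genome (GRCm38, GENCODE annotation), from Nfe2l2 at chr2:75675513-75704641 on the minus strand to Sod2 at chr17:13006846-13040063 on the plus strand, and Nfe2l2 and Srxn1 (chr2:152105516-152111376) share chromosome 2. RefSeq promoter windows of GRCm38.p6, reaching from 250 bases before to 50 bases after a start site, were found for 8 of the 10 genes. They were searched on both strands for TGACNNNGC, the core of the antioxidant response element, and for its variant TGAGNNNGC. The 8 genes had 10 windows, of which 5, each of a different gene, held a match, against 27.8% of 32851 promoters in the genome. Srxn1 held 3 matches, Prdx1 2 and the others 1 each. The following stretches show in each of the 5 genes the match nearest before its start site, 5′ to 3′ along the gene's strand, with the matched bases in capitals.

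Nfe2l2: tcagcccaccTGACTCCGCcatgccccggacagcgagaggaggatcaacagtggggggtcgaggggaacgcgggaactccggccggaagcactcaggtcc
Srxn1: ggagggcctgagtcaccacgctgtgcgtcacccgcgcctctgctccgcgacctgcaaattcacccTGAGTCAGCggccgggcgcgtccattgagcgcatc
Gclm: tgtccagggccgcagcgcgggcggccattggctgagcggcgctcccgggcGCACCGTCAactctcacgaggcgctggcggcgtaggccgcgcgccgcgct
Prdx1: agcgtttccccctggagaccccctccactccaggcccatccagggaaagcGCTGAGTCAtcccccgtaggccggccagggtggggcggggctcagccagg
Txnrd1: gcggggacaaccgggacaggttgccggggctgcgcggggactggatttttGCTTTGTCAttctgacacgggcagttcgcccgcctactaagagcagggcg

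The stretches lie at chr2:75704814-75704913 (Nfe2l2, minus strand), chr2:152105414-152105513 (Srxn1), chr3:122245373-122245472 (Gclm), chr4:116685416-116685515 (Prdx1) and chr10:82859064-82859163 (Txnrd1). The matches began 240, 45, 134, 133 and 92 bases before the start sites, in the same order. Those of Srxn1 and Prdx1 overlap TGAGTCA, the letters read by AP-1 factors. No match was found in the windows of Nqo1, Keap1 and Sod2, which says only that these letters are not there, and a match is a description of sequence rather than a site in use.

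Among the regulators, Nfe2l2 had its highest levels in myeloid cells. Neutrophils held 497, 223 and 446 CPM in Aachen, Bonn and Hamburg (389 ± 146, n = 3), although Aachen rests on 25 cells and 7 UMIs of the gene. Monocytes held 219 ± 141 and resident macrophages 195 ± 69.7 (n = 3 each). The neighbours in this order did not differ beyond their spread down to the Malat+_Macrophage cluster at 186 ± 63.2, after which conventional dendritic cells (cDCs) were lower beyond the spread, at 94.9 ± 49.0. Lymphoid classes were lower still, with 72.6 ± 19.3 in NK cells, 52.5 ± 14.6 in B cells and 42.7 ± 16.1 in T cells.

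Paired within a dataset, resident macrophages exceeded T cells in Nfe2l2 by 2.27, 2.08 and 2.17 on the log2 scale, a mean of 2.17 ± 0.09 (n = 3). This was the largest macrophage and T cell contrast of the 10 genes, and it is a description because the clusters were made from the expression of the same cells. Within the class, Macrophage_1 held 222 ± 65.4 and Macrophage_2 151 ± 43.4 CPM of Nfe2l2, and Macrophage_1 was above Macrophage_2 in each dataset. Among cDCs, cDC2 held 135 ± 72.3 and cDC1 43.0 ± 26.4, with cDC2 higher in each dataset. With each cell thinned to 500 UMIs, 8.90% ± 2.94 of resident macrophages and 2.11% ± 0.95 of T cells held a UMI of Nfe2l2.

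Keap1, the repressor, spanned a narrower range than Nfe2l2. Its mean level ran from 15.1 ± 18.1 CPM in neutrophils to 52.2 in plasmacytoid dendritic cells (2 datasets), and resident macrophages (36.8 ± 11.8) and T cells (40.1 ± 11.4) differed by -0.13 ± 0.17 on the log2 scale. Of neighbours in its order, only resident macrophages and monocytes (29.7 ± 11.8) differed beyond their spread.

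**Figure D1:**
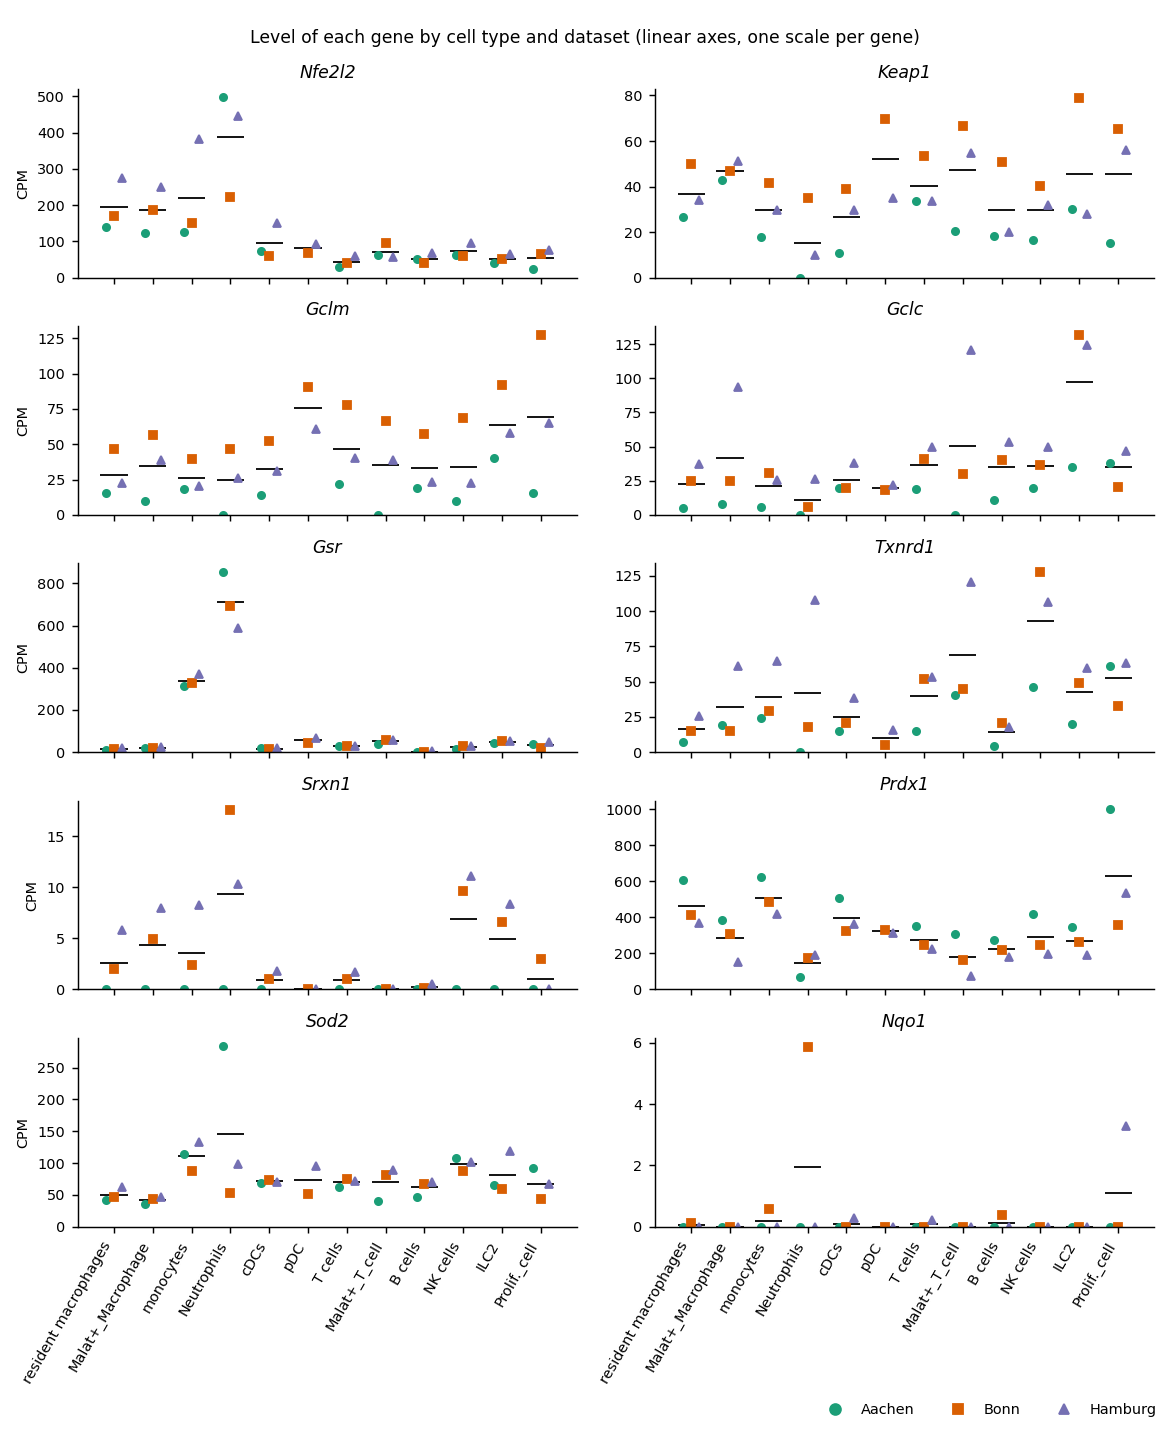
Level of each gene (CPM, linear axis, own scale per gene) in 12 cell types; points are the Aachen, Bonn and Hamburg datasets and the bar is their mean, and the Undefined cluster is left off. By the mean, Nfe2l2 was highest in neutrophils, monocytes and resident macrophages and Gsr in neutrophils and monocytes, while the NK cell mean of Txnrd1 led the next type by less than its spread.

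Among the glutathione genes, Gclc and Gclm encode the catalytic and the modifier subunit of glutamate-cysteine ligase, the rate-limiting enzyme of glutathione synthesis, and Gsr encodes glutathione reductase, which restores oxidised glutathione. Gsr marked neutrophils and monocytes. Neutrophils held 852, 692 and 587 CPM in Aachen, Bonn and Hamburg, and monocytes held 312, 328 and 371. The means of 710 ± 133 and 337 ± 30.9 differed beyond their spread, by 1.06 ± 0.39 on the log2 scale (n = 3). Every other type except the Undefined cluster had a mean of at most 55.7, with 29.4 ± 0.78 in T cells, 15.9 ± 5.5 in resident macrophages and 2.80 ± 1.84 in B cells. Resident macrophages, high in Nfe2l2, were thus below T cells in Gsr in each dataset, with a log2 difference of -0.90 ± 0.43.

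Gclc stood out in a small T cell cluster. T_cell_4 held 205, 260 and 219 CPM in Aachen, Bonn and Hamburg (228 ± 28.5, n = 3; 161 cells and 136 UMIs of the gene), while T_cell_1, T_cell_2 and T_cell_3 had means of 22.3 to 32.8. The Malat+_T_cell cluster held 50.2 ± 63.0, with 121 in Hamburg. Genes that marked T_cell_4 against the other T cells included Blk, a SRC family kinase, Cd163l1, Serpinb1a, Ltb4r1 and Pxdc1. Group 2 innate lymphoid cells (ILC2) followed with 97.0 ± 53.8, with 35.0 in Aachen, 132 in Bonn and 124 in Hamburg. Resident macrophages held 22.3 ± 15.9 and were below T cells in each dataset.

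Gclm was more even than its partner, with means between 24.4 ± 23.5 CPM in neutrophils and 75.7 in plasmacytoid dendritic cells outside the Undefined cluster. Resident macrophages (28.2 ± 16.3) were below T cells (46.8 ± 28.5) in each dataset, with a log2 difference of -0.67 ± 0.18. The subunits of the ligase therefore had different orders over cell types.

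Of the thioredoxin genes, Txnrd1 encodes cytosolic thioredoxin reductase, Prdx1 a peroxiredoxin that reduces hydrogen peroxide, and Srxn1 the sulfiredoxin that repairs overoxidised peroxiredoxins. Outside the Undefined cluster Txnrd1 had its highest mean in NK cells, at 45.9, 127 and 106 CPM in Aachen, Bonn and Hamburg (93.1 ± 42.2). The lead over the next type, the Malat+_T_cell cluster (68.6 ± 45.1), was 0.49 ± 0.89 on the log2 scale and within its spread, and the Prolif._cell cluster was higher in Aachen (61.1) and Malat+_T_cell (121) and neutrophils (108) in Hamburg. NK_cell_2 exceeded NK_cell_1 in each dataset (117 ± 60.6 against 73.8 ± 28.3). Resident macrophages held 16.1 ± 9.46 and T cells 40.1 ± 21.5, and the macrophages were lower in each dataset, with a log2 difference of -1.24 ± 0.40.

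Prdx1 was the gene seen in most cells, with a UMI in 46.1% of all cells. Resident macrophages held 605, 414 and 370 CPM in Aachen, Bonn and Hamburg and T cells 351, 246 and 226, a difference of 0.75 ± 0.04 on the log2 scale. Within the class the Isg+_Macrophage cluster, marked by interferon-stimulated genes, was highest at 712 ± 178. Neutrophils, highest in Nfe2l2 and Gsr, had the lowest Prdx1 mean at 147 ± 66.1, although Aachen rests on 25 cells and 1 UMI of the gene. The next type, the Malat+_T_cell cluster (181 ± 117), did not differ from neutrophils beyond the spread (0.20 ± 1.76 on the log2 scale). It was lower than neutrophils in Bonn (163 against 176) and in Hamburg (73.4 against 193).

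Sod2, the mitochondrial superoxide dismutase, was 145 ± 122 CPM in neutrophils, 111 ± 22.4 in monocytes and 99.1 ± 10.4 in NK cells, and these neighbours did not differ beyond their spread. Resident macrophages were among the lowest, at 50.4 ± 10.3, although their Isg+_Macrophage cluster held 134 ± 107 with 258 in Hamburg alone.

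Srxn1 and Nqo1, the textbook NRF2 targets for peroxiredoxin repair and quinone reduction, were nearly absent. Srxn1 had a UMI in 137 of 20266 cells, 0.676% (95% exact binomial interval 0.568 to 0.799, counting error only). Nqo1 had a UMI in 18 cells, 0.0888% (0.0526 to 0.140). Of these, 8 were in the 69 cells of the Undefined cluster, where 9 kidney tubule genes summed to 13196 CPM. Both were listed at 0 in all Aachen libraries, where 0 counts allow a level of up to 0.371 CPM, against 1.91 in Bonn and 3.71 in Hamburg for Srxn1 and 0.598 and 0.182 for Nqo1. For Nqo1 in Hamburg the level therefore lies under what 0 counts allow in Aachen. NK cells held 32 of the 137 cells with Srxn1, and resident macrophages also 32, from classes of 1133 and 5367 cells. Aachen, where Srxn1 had 0 counts, supplied 309 of these NK cells and 3044 of these macrophages, so the pooled shares are not comparable. Within datasets, NK cells held 9.66 CPM of Srxn1 in Bonn and 11.1 in Hamburg, against 1.97 and 5.84 in resident macrophages.

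The study asked whether kidney position leaves a mark on immune cells, so each class was compared between medulla (the mean of OM and IM) and cortex, and between single compartments, with edgeR on counts summed per library and the dataset as block. In resident macrophages, where 1.23% of 8228 genes tested passed an adjusted p of 0.05 between medulla and cortex, none of the 8 of 10 genes that could be tested did, and Nqo1 and Srxn1 were too rare to be tested in any class. The same count of 0 was found in monocytes (7 tested, background 0.312%), cDCs (8, 1.88%), T cells (8, 0.0117%), B cells (7, 0.0353%) and NK cells (8, 0.627%). Gclm in monocytes and Gsr in B cells were also too rare. Over 24 class and contrast pairs, 184 values were tested and 0 were called by edgeR or by DESeq2, while 13 had an unadjusted p under 0.05 by edgeR (7.07%, against 5.61% of 173500 tests over all genes) and 6 by DESeq2 (3.26%, against 2.12%). Among single compartments, OM against cortex called 0 of the 7 or 8 tested genes in each class, where 0.826% of all genes passed in resident macrophages, 0.238% in monocytes, 1.11% in cDCs, 0.0235% in T cells, 0.047% in B cells and 0.813% in NK cells. IM against cortex also called 0, where 0.0851% passed in resident macrophages, 0.202% in monocytes, 1.02% in cDCs, 0.0235% in T cells, 0.0353% in B cells and 0.0847% in NK cells. OM against IM called 0 as well, where 0% passed in resident macrophages and T cells, 0.0917% in monocytes, 0.0592% in cDCs, 0.0235% in B cells and 0.186% in NK cells. With backgrounds of at most 1.88%, a count of 0 among 8 genes does not set them apart from other genes.

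**Figure D2:**
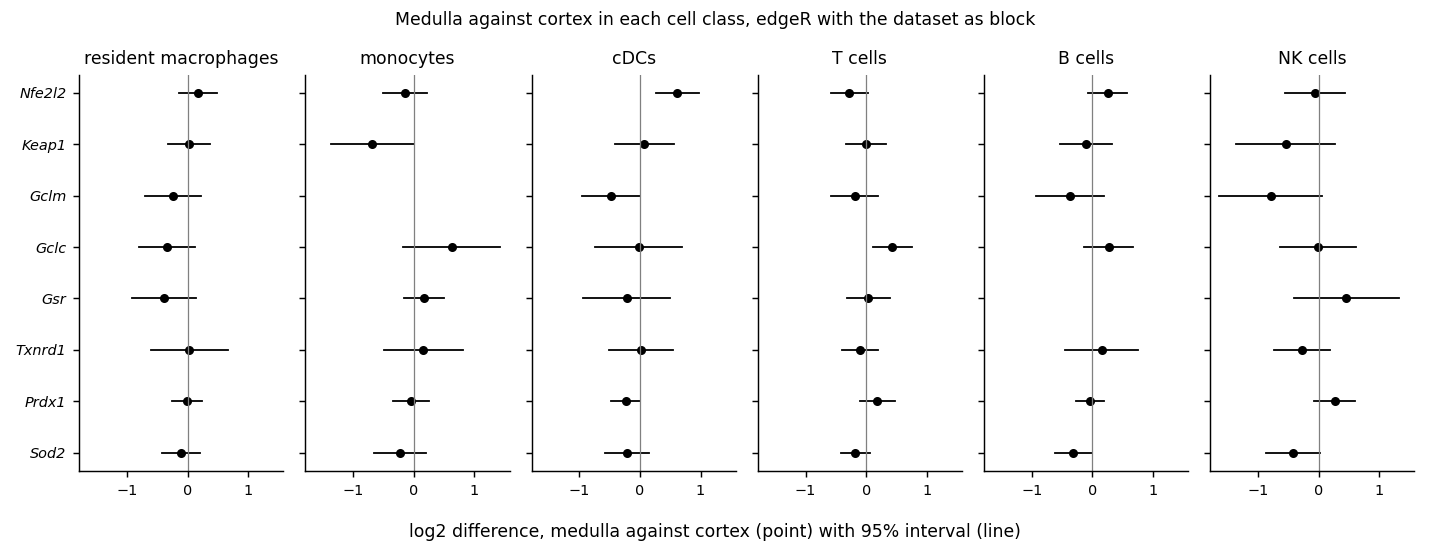
Medulla against cortex in 6 cell classes for 8 genes: the point is the log2 difference of the edgeR fit and the line its 95% interval; a missing point is a gene too rare to be tested. Most intervals span 0, and Nfe2l2 in cDCs (0.62, 0.27 to 0.97) lies farthest from it relative to its width.

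In resident macrophages, Nfe2l2 was 158, 159 and 208 CPM in cortex in Aachen, Bonn and Hamburg, 141, 172 and 276 in OM and 121, 179 and 333 in IM. It was lower in medulla in Aachen (-0.26 on the log2 scale) and higher in Bonn (0.19) and Hamburg (0.50). The fitted difference was 0.17 with a 95% interval of -0.15 to 0.48, which still allows a rise of that upper size, and without Hamburg it was -0.03. The make-up of the class moved with compartment: Macrophage_3 (189 ± 69.1 CPM of Nfe2l2) made up 0, 7.05 and 0% of the class in cortex in Aachen, Bonn and Hamburg, 44.7, 42.9 and 23.0% in OM and 1.17, 43.1 and 15.4% in IM, and Macrophage_1 in Bonn went from 4.45% in cortex to 44.4% in IM. Fitted alone, Nfe2l2 differed by 0.21 (-0.16 to 0.58) in Macrophage_1 and by 0.20 (-0.16 to 0.57) in Macrophage_2. Keap1 differed by 0.02 (-0.33 to 0.38) and Prdx1 by -0.01 (-0.25 to 0.24), so a change of more than those bounds lies outside the intervals. Gclc CPM were lower in OM and IM than in cortex in each dataset, at 10.6, 26.1 and 43.3 in cortex, 3.90, 19.8 and 37.7 in OM and 2.95, 24.6 and 29.3 in IM. On the normalised log2 scale IM and cortex were level in Bonn (0.0029). The fitted difference of -0.34 (-0.81 to 0.12) had an adjusted p of 0.68 by edgeR. Gsr (-0.40, -0.93 to 0.13), Gclm (-0.24, -0.70 to 0.23), Sod2 (-0.11, -0.42 to 0.20) and Txnrd1 (0.03, -0.61 to 0.67) also had intervals that span 0.

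**Figure D3:**
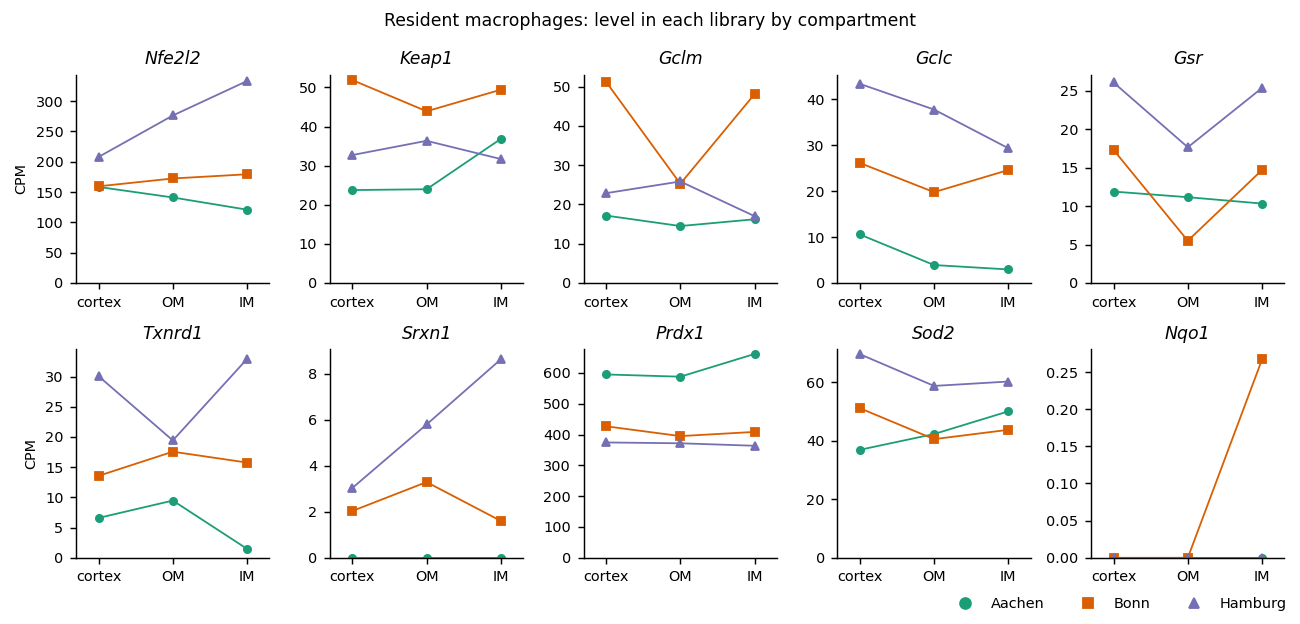
Level of each gene in resident macrophages (CPM, axis from 0) in cortex, OM and IM, with a line for each dataset. Nfe2l2 runs down from cortex to IM in Aachen (158 to 121) and up in Hamburg (208 to 333), and Prdx1 is highest in Aachen in each compartment.

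The estimate with the lowest adjusted p was Nfe2l2 in cDCs. It was 75.0, 46.5 and 99.2 CPM in cortex in Aachen, Bonn and Hamburg, 67.5, 79.1 and 170 in OM and 76.0, 71.0 and 180 in IM. Medulla was higher in Bonn and Hamburg and about level in Aachen, with log2 differences of 0.69, 0.76 and -0.10. The fit gave 0.62 (0.27 to 0.97) with an adjusted p of 0.065 by edgeR, which does not pass. The make-up of the class moved with it: cDC2, the subset with more Nfe2l2, made up 33.8, 59.7 and 44.2% of cDCs in cortex, 79.4, 85.1 and 73.4% in OM and 64.1, 89.8 and 75.8% in IM. Fitted alone, cDC2 gave 0.26 (-0.20 to 0.71) and cDC1 0.15 (-0.64 to 0.94). Without cells holding at least 2 UMIs of the T and B cell marker lists, which left 632 of 971 cDCs, the difference was 0.20 (-0.27 to 0.66).

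**Figure D4:**
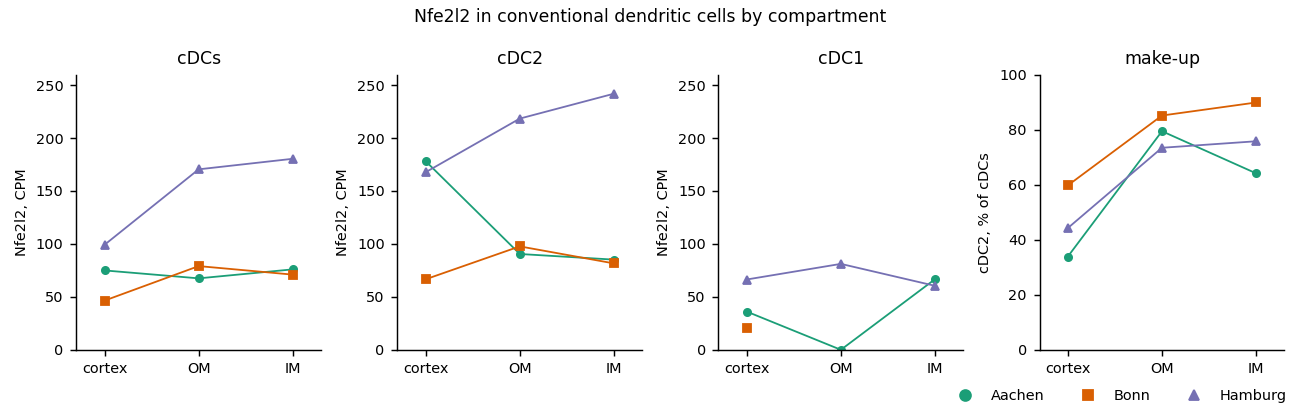
Nfe2l2 (CPM) in all cDCs, in cDC2 and in cDC1 by compartment, and the percent of cDCs that were cDC2, with a line for each dataset; libraries under 20 cells are left out. The cDC2 share was higher in OM and IM than in cortex in each dataset, and cDC2 in Aachen had its highest Nfe2l2 in cortex (178, from 22 cells).

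In T cells Gclc was 11.2, 36.8 and 43.9 CPM in cortex in Aachen, Bonn and Hamburg, 21.4, 34.2 and 53.6 in OM and 23.0, 61.7 and 55.5 in IM. The medulla estimate was 0.43 (0.11 to 0.76), with an unadjusted p of 0.012 and an adjusted p of 0.69 by edgeR. The Gclc estimate was thus positive in T cells and negative in resident macrophages. For Nfe2l2 the signs were the other way round, at -0.28 (-0.58 to 0.03) in T cells. None of these estimates passed after adjustment, and only the interval of Gclc in T cells lay on a single side of no difference. Fitted alone, Gclc was -0.57 in Macrophage_1 and 0.11 in Macrophage_2.

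Whether the medulla effect itself differed between resident macrophages and another class was tested as an interaction in edgeR. Against T cells, where 0.425% of genes passed, the difference was 0.59 (0.17 to 1.0) for Nfe2l2 and -0.74 (-1.26 to -0.22) for Gclc, each with an adjusted p of 0.31, and 0 of the 8 genes passed. The resident macrophage list in Aachen T cells, which ran from 866 CPM in cortex to 2285 in IM, moved with compartment, and its part in the difference was not tested. Without the Aachen dataset the Nfe2l2 difference was 0.69 with an adjusted p of 0.043, which would pass, and with cells thinned to 500 UMIs it was 0.05. Against B cells (1.04% of genes passed) and cDCs (1.95%), 0 of 8 genes passed.

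The wider pathway was read from a list of 49 other genes of glutathione, thioredoxin, NADPH and iron metabolism and of NRF2 control, of which 33 to 39 were tested in a class. Resident macrophages, monocytes, T cells and B cells had 0 called genes in all 4 contrasts. In resident macrophages the median log2 difference of the list between medulla and cortex was -0.03, against 0.01 over all genes tested. In cDCs, of 37 genes of the list tested, 1 rose and 2 fell in medulla against cortex, where 1.88% of all genes passed. Fth1, the ferritin heavy chain that stores iron, rose by 0.42 (0.20 to 0.64, adjusted p 0.045 by edgeR). Txn1, thioredoxin itself, fell by 0.61 on the log2 scale (adjusted p 0.0082), and Glrx, glutaredoxin, fell by 0.64 (adjusted p 0.038). By DESeq2 the Txn1 call held (adjusted p 0.0010), and those of Fth1 (0.23) and Glrx (0.13) did not.

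Txn1 in cDCs was 495, 415 and 398 CPM in cortex in Aachen, Bonn and Hamburg, 214, 232 and 212 in OM and 437, 330 and 355 in IM. The OM libraries lay below all others without overlap, and OM against cortex gave -0.97 for Txn1 (adjusted p 0.0015) and -1.02 for Glrx (adjusted p 0.012), with 1.11% of genes called in that contrast. The cDC2 share given above moved with these calls. In cDC2 alone Txn1 differed by 0.04, Glrx by -0.21 and Fth1 by 0.10 between medulla and cortex, and in cDC1 alone by -0.23, -0.57 and 0.04, none of which passed. Between OM and cortex Txn1 was -0.44 in cDC2 alone and -0.44 in cDC1 alone, and Glrx was -0.51 and -0.80, which did not pass either. The medulla calls of all 3 genes were also lost without Aachen (adjusted p 0.059, 0.16 and 0.16 by edgeR for Txn1, Glrx and Fth1) and without Hamburg (0.26, 0.51 and 0.44), with differences of -0.58, -0.59 and 0.45 and of -0.61, -0.58 and 0.44 on fewer libraries. The OM call of Txn1 still passed without Aachen (adjusted p 0.039) and not without Hamburg (0.19), and that of Glrx was lost without either (0.10 and 0.34). With cells thinned to 500 UMIs, Txn1 passed neither in medulla (-0.51, adjusted p 0.41 by edgeR) nor in OM (-1.04, 0.083), while Fth1 passed in medulla (0.0066). Without cells holding T and B cell markers, Txn1 passed in OM (0.0097) and not in medulla (0.061). Fth1 passed there in medulla (0.047), and Glrx passed in neither (0.23 and 0.16).

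In NK cells 1 gene of the list fell in medulla and in OM, Osgin1, an oxidative stress-induced growth inhibitor. The fit gave -1.95 (-2.71 to -1.19, adjusted p 0.00026 by edgeR) for medulla and -2.71 for OM against cortex, with 0.813% of genes called in the OM contrast. The call rests on 68.1 UMIs in the Hamburg cortex library, against 8.94 in OM and 19.5 in IM there and 0 to 4 UMIs in each Aachen and Bonn library. By DESeq2 the medulla difference of -1.67 did not pass, and too few libraries remained for a fit without Hamburg. The Hamburg cortex library was also the highest for Osgin1 in T cells, at 63.5 CPM against 13.5 in OM and 21.1 in IM there. The medulla fit in T cells was -1.22 (-1.84 to -0.60) and did not pass (adjusted p 0.27 by edgeR).

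Several of the genes kept the same dataset on top in every class. Over the 6 classes, Nfe2l2 was highest in Hamburg in 6, Gclm highest in Bonn in 6, and Prdx1 highest in Aachen in 6. Gclm, Gclc, Txnrd1 and Srxn1 were lowest in Aachen in 6 of 6 classes. The list of dissociation and immediate early genes (Fos, Jun, Junb, Egr1, Atf3, Hspa1a and Hspa1b) was also highest in Hamburg in 6 of 6 classes and lowest in Bonn in 6 of 6. In resident macrophages that list ran from 28387 to 31623 CPM in Hamburg, from 10718 to 16914 in Aachen and from 1656 to 7869 in Bonn. Its part in the levels of Nfe2l2 was not tested, and dataset, chemistry, depth and processing cannot be told apart.

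**Figure D5:**
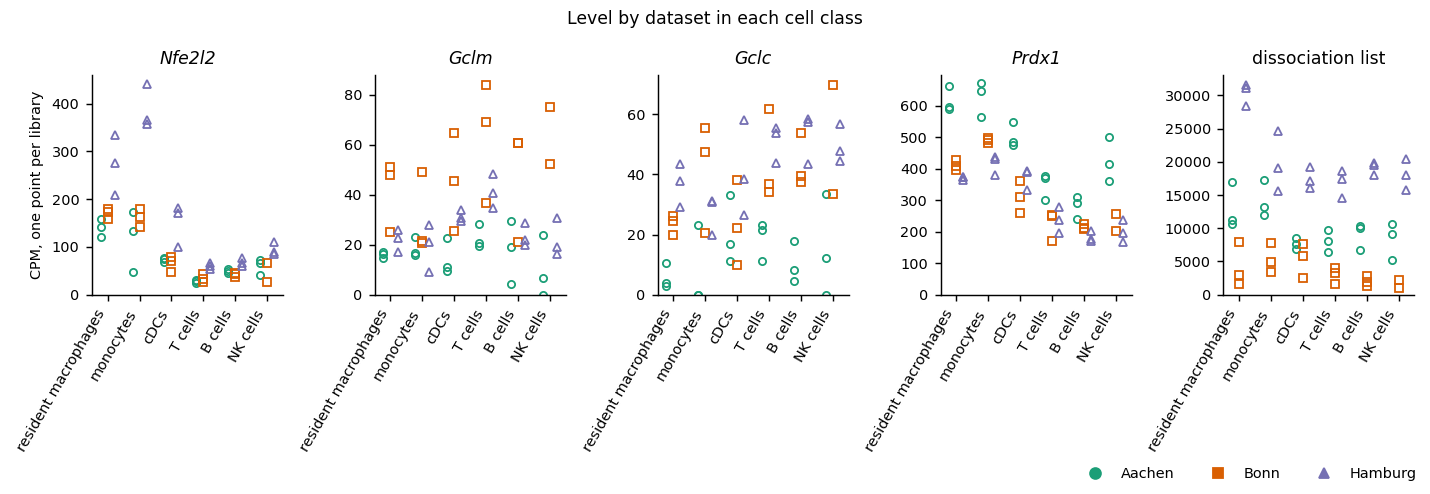
Level of 4 genes and summed level of the dissociation and immediate early list (CPM, linear axes) in 6 cell classes, with a point for each library. By the mean of its libraries, Hamburg is highest in all 6 classes for Nfe2l2 and for the list, Bonn for Gclm and Aachen for Prdx1.

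The Undefined cluster held 69 cells, 43 of them from Bonn, and only the Bonn sum had at least 20 cells. There Prdx1 was 2016, Gclm 590, Sod2 541, Gclc 219, Gsr 181, Txnrd1 117 and Nqo1 32.1 CPM (11 UMIs), with no replicate. Prdx1, Gclm, Sod2 and Nqo1 were above every dataset value of the other types. Gclc and Txnrd1 were above the means of the other types, but the T_cell_4 cluster held more Gclc and NK cells in Bonn more Txnrd1 (127). Over the Undefined cells 9 kidney tubule genes (Kap, Miox, Slc34a1, Lrp2, Umod, Slc12a1, Aqp2, Fxyd4 and Epcam) were all detected and summed to 13196 CPM, against at most 497 in any library of another type. Of the marker lists of leukocyte types the B cell list was highest there, at 2209 CPM, and the resident macrophage list was 404. The cluster is called by its label only. The 3 genes most like Nqo1 over 65 cluster and dataset sums were Slc34a1, Acy3 and Slc27a2 (Pearson r 0.92, 0.91 and 0.90), with Nqo1 far below the minimum level set for this comparison.

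Over the same 65 sums, with each dataset centred and 6129 genes compared, the genes with patterns most like Nfe2l2 were Klra2, Ptafr and Pla2g7 (r 0.87, 0.87 and 0.86). For Gsr they were Msrb1, Hp and Cebpb (0.82, 0.80 and 0.80), and for Prdx1 Dbi, Akr1a1 and Tmem256 (0.86, 0.86 and 0.84). Gclc was closest to Tmem64, Pxdc1 and Lpcat3 (0.73, 0.69 and 0.69), and Txnrd1 to Acot7, Nabp1 and Camk2n1 (0.71, 0.71 and 0.70). Keap1, Gclm, Sod2 and Srxn1 had no gene above 0.70. The sums share libraries and depth, so these values are descriptions.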

How the data were processed

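Leukocytes of cortex, OM and IM were sequenced as single cells in droplets in 3 datasets. Per the labels and methods, the authors mapped reads to mm10 with Cell Ranger, filtered cells by detected genes and mitochondrial share, and integrated and clustered them with Seurat (tools and build as in the submitters' processing notes). The deposited table holds expected counts of UMIs per cell, whole in Aachen and Bonn and mostly not whole in Hamburg, with the authors' cluster, compartment and facility.

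UMI counts were summed per library and class (resident macrophages: Macrophage_1 to Macrophage_3 and Isg+_Macrophage) and rounded. The sums were fitted over all genes with edgeR 4.0.16 in R 4.3.3 (filterByExpr, TMM, glmQLFit, glmQLFTest, Benjamini-Hochberg, threshold 0.05), with compartment and dataset as terms and libraries of at least 20 cells. The NK cells of the Bonn OM library (19 cells) were left out. DESeq2 1.42.0 was an alternative. Fits were tested on simulated data. Pairing by dataset was checked on 8228 genes in resident macrophages: the 9 pairs of centred profiles from the same dataset had correlations of 0.83 to 0.92, the 27 pairs from different datasets had -0.87 to 0.49, and the labels give the dataset as facility. Centring on the compartment means by itself lowers correlations between datasets. The gap thus describes a dataset effect and cannot show that compartments came from the same mice. Levels used numpy 2.4.6 and pandas 2.3.3, averaged over datasets, with a pseudocount of 1 CPM in log2 differences. A value above 0.5 counted as a UMI. No doublet caller was run; cells with markers of other classes were removed in an alternative. No column of another series was present.

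All 10 genes are named, and of the pathway list only the genes that were called. The 3 most alike genes are named for some of the 10 (log2 with a pseudocount of 10, mean of at least 20). A gene of the kidney tubule list, which was summed without it, and a marker gene of a T cell cluster are not reported here. The genes and lists were chosen with earlier results of these data known.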

Additional observations from a re-analysis of the deposited data

Results flagged for a closer look

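The interaction test of edgeR on the medulla effect between resident macrophages and cDCs called 1.95% of 9009 genes. Of the pathway list of 49 genes, 2 were called. For Txn1 the difference (resident macrophages minus cDCs) was 0.59 on the log2 scale (0.26 to 0.92, adjusted p 0.042): Txn1 differed by -0.04 (-0.30 to 0.22) in resident macrophages, where the 9 libraries held 114 to 148 CPM, and fell by 0.61 in cDCs. For Fth1 the difference was -0.72 (-0.97 to -0.47, adjusted p 0.00012): Fth1 was -0.33 (-0.55 to -0.11, adjusted p 0.19) in resident macrophages and rose by 0.42 in cDCs. The Txn1 call was lost in every alternative of this interaction, with adjusted p from 0.055 (RLE size factors) to 0.87 (thinned cells) by edgeR. Its difference there lay between 0.48 and 0.58. The Fth1 call passed in each alternative, with a highest adjusted p of 0.014 by edgeR (without Aachen). The share of cDC2 among cDCs was higher in medulla in each dataset, and its part in these differences was not tested in the interaction.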

How the results depend on the processing

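No gene of the 10 passed between compartments in any of 336 fits over all settings, classes and contrasts, with a lowest adjusted p of 0.058 by edgeR (Nfe2l2 in cDCs without replicate 1, Aachen). In the interaction against T cells, leaving out 1 dataset gave 0 to 1 called genes, the 1 being Nfe2l2 without Aachen. Of 46 medulla estimates, 24 kept their sign in every alternative with a value, single clusters not counted, and 22 changed it in at least 1. Signs also changed in single clusters. Sod2, with a negative estimate in resident macrophages, was 0.23 in Macrophage_1 alone, 0.36 in Macrophage_2 alone and -0.49 in Isg+_Macrophage alone. Nfe2l2 in resident macrophages (0.17) ranged from -0.031 (without Hamburg) to 0.31 (without Aachen) with 1 dataset left out, and turned to -0.071 with thinned cells, -0.00031 without the Hamburg cortex library and -0.14 in Isg+_Macrophage alone. Txn1 in cDC2 alone was 0.042. Removing cells with markers of other lineages, single libraries or single clusters other than those of resident macrophages were alternatives chosen after seeing the data.

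Without the replicate block, 0 genes of the whole table were called between medulla and cortex in each of the 6 classes by edgeR, against 101, 17, 127, 1, 3 and 37 with it (resident macrophages, monocytes, cDCs, T cells, B cells and NK cells); 109, 22, 130, 29, 11 and 15 then had an unadjusted p under 0.05, and Nfe2l2 in cDCs was 0.51. DESeq2 called 47, 1, 55, 0, 0 and 3. The Fth1, Txn1 and Glrx calls of medulla against cortex in cDCs were lost without Aachen (adjusted p 0.16, 0.059 and 0.16) and without Hamburg (0.44, 0.26 and 0.51), with differences of 0.45, -0.58 and -0.59 and of 0.44, -0.61 and -0.58; those of Fth1 and Glrx were also lost by DESeq2 (0.23 and 0.13).

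The macrophage minus T cell difference became 1.95 for Nfe2l2 with a pseudocount of 10, and 2.36 for Nfe2l2, 0.06 for Keap1 and -0.81 for Sod2 without cells holding other classes' markers. With thinned cells it was -1.01 for Gclm, 1.45 for Srxn1 and 0.69 for Prdx1. Unthinned, the percent of resident macrophages with a UMI was 39.3 for Nfe2l2, 12.4 for Keap1, 0.0247 for Nqo1, 10.4 for Gclm, 6.68 for Gclc, 5.44 for Txnrd1, 0.952 for Srxn1, 58.8 for Prdx1, 13.4 for Sod2 and 5.0 for Gsr; fewer UMIs per cell is what thinning does, and the other causes were not tested. Macrophage_3 alone, monocytes and cDCs without cells holding other classes' markers, and NK cells without replicate 1 or 3, could not be fitted for lack of libraries. Srxn1 and Nqo1 had 0 counts in Aachen, the dataset with the fewest UMIs per cell, so statements on their levels rest on Bonn and Hamburg. Over all Aachen cells, 0 counts allow up to 0.371 CPM. That bound lies above Nqo1 in Hamburg (0.182). It lies below Nqo1 in Bonn (0.598) and below Srxn1 in Bonn (1.91) and Hamburg (3.71).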
